A study of Homo sapiens with 12 samples.

Results

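The genes described here encode 6 classical autoantigens of Sjögren's syndrome and related connective tissue disease: TRIM21, RO60, SSB, SNRNP70, SNRPA and SNRPC. They were picked by gene name from the 60609 genes in the deposited transcript files. Each name matched exactly 1 gene, and all 6 were among the 17185 genes abundant enough to be tested. A gene's level is the sum of the TPM of its transcripts, where TPM is a share of all transcripts in the library and is already divided by transcript length.

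TRIM21, also called Ro52, is an E3 ubiquitin ligase that binds the constant part of antibodies inside the cell and is known as an interferon-induced gene. RO60 is a ring-shaped protein that holds Y RNAs and misfolded small RNAs, and SSB, the La protein, binds the uridine-rich ends of new RNA polymerase III transcripts. SNRNP70, SNRPA and SNRPC are the proteins specific to the U1 small nuclear ribonucleoprotein (snRNP), which recognises the 5′ splice site. Antibodies to Ro and La mark Sjögren's syndrome and lupus, and antibodies to the U1 proteins mark mixed connective tissue disease and lupus. Salivary epithelium is a main target tissue in Sjögren's syndrome.

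The cells were NS-SV-AC, an established human line derived from salivary gland acinar cells and immortalised with SV40, so a single line stands for the tissue. Groups received DMSO, the solvent control, or 2-CM, the adenosine analogue 2′-C-methyladenosine, or RES, the polyphenol resveratrol. Both compounds were used at 20, in a unit read here as micromolar, and were added 24 h ahead of the transfection and a second time with it. Each of these 3 treatments was combined with transfection of poly I:C (a double-stranded RNA made in the laboratory) for 14 h, or with a control transfection labelled depc. Cells were grown for 48 h, and polyadenylated RNA was sequenced from both ends. The resulting 6 groups had 2 libraries each, 12 in all. No label says whether replicates were separate cultures, so p-values measure the spread between these libraries, which may be technical.

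Library depth ran from 3.72 to 6.0 gigabases on annotated transcripts. Behind a single value of RO60, the scarcest of the 6, lay 231 to 2044 estimated reads, and behind SNRNP70 lay 9096 to 20976. Of 12 markers of salivary acinar cells, 6 were at 0 TPM in every library (AQP5, MUC7, STATH, PRB1, HTN1 and PIP), 11 stayed below 1 TPM throughout, and BHLHA15 reached 2.69 TPM. The summed acinar markers were 0.574 to 2.75 TPM over all libraries. The simple-epithelium keratins KRT8 and KRT18 were at 630 to 1958 and 466 to 1571 TPM, but EPCAM did not exceed 1.23 and CDH1 0.596 TPM. Of 6 fibroblast markers, COL1A1 reached 100.3 TPM and COL3A1 60.1 TPM, LUM 32.5 TPM and DCN 18.0 TPM, while COL1A2 and PDGFRA did not exceed 0.0813 TPM. Summed, the fibroblast markers were lower with poly I:C in DMSO (46.3 to 80.9 against 119 to 133 TPM) and RES (45.1 to 66.4 against 76.5 to 88.5 TPM) but not in 2-CM (143 to 152 against 138 to 147 TPM). Members of that list differed: in DMSO COL1A1 changed by -1.95 and COL3A1 by -1.12, but DCN by 0.82 and LUM by 0.75, and after GC correction 2 were called higher and 2 lower. The summed epithelial markers were lower with poly I:C under each treatment, at 1100 to 1733 against 2302 to 2495 TPM in DMSO, 1392 to 1493 against 3213 to 3532 TPM in 2-CM and 1099 to 1374 against 1683 to 2332 TPM in RES. KRT8 and KRT18 make up nearly all of that sum, and in 2-CM EPCAM was called higher (0.88, adjusted p = 0.0314) and KRT7 lower (-0.51, adjusted p = 0.0368), though neither after GC correction (0.28 and -0.21). Their part in the results below was not tested. In bulk RNA, fewer cells of a kind and less RNA per cell cannot be told apart. The leukocyte markers PTPRC, CD3E and MS4A1 were at 0, with CD14 at 7.05 to 15.8 TPM and the whole list summing to 8.25 to 17.6 TPM, and of 4 endothelial markers only KDR passed 1 TPM. The data therefore describe an SV40-immortalised line without the secretory transcripts of acinar tissue.

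Replicates of a group differed along GC content. Over all tested genes, Spearman's coefficient for the difference of the replicates against GC content ran from -0.43 in 2-CM poly I:C to -0.78 in RES depc, and was 0.77 in RES poly I:C. This touches the 6 genes unequally. GC content of the exons was 35.9% for RO60 and 38.1% for SSB, at the 2.09th and 7.0th percentile of tested genes. It was 50.9% for TRIM21 and 49.9% for SNRPC, close to the median of 48.4%. It was 56.8% for SNRPA and 61.4% for SNRNP70, the latter at the 90.6th percentile. The changes of these genes with poly I:C are therefore given on TPM and also after a smooth trend with GC content was removed from every library. The trend was removed whatever its source, so a GC-linked effect of a treatment would be removed with it. The correction cannot tell such an effect from a GC-linked difference between libraries.

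The promoters of these genes were first searched for letters known from interferon-responsive promoters. The windows, from RefSeq on GRCh38.p14, run from 250 bases before to 50 bases after each start, with 2 windows each for RO60 and SSB. The motifs were the core of the interferon-stimulated response element, which is GAAA and GAAA with any 2 bases between them, and the gamma-activated site, which is TTC and GAA with any 3 bases between them. Both strands were searched, and matches of a motif may overlap. The first occurred in 3.57% and the second in 7.66% of 35116 such windows. TRIM21 held 2 overlapping matches to the first motif and SNRPC held 1, whereas RO60, SSB, SNRNP70 and SNRPA held none. None of the 6 genes held the second motif. The stretches with matches are shown because TRIM21 was the gene called higher after transfection under every treatment, and 3 interferon-induced genes that also hold a match are set beside it. Of the other searched reference genes, OAS1, IRF9, IRF1 and STAT2 held no match to the first motif, and OAS1, IRF9 and IRF1 held 2 each to the second. Capitals mark the matched letters.
TRIM21: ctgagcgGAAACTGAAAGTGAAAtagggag
SNRPC: atgaaaggaaGAAAAGGAAAagccccgccc
ISG15: gcctcggGAAAGGGAAACCGAAActgaagc
IFIT1: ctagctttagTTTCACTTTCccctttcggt
MX1: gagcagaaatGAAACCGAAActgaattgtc
The TRIM21 stretch, chr11:4393663-4393692 on the minus strand, lay in an annotated exon and its first match began at base 18 of the transcribed region. The MX1 stretch, chr21:41420559-41420588 on the plus strand, was placed likewise, with a match from base 12. The SNRPC stretch, chr6:34757380-34757409 on the plus strand, lay upstream, its match beginning at base -115. In ISG15, chr1:1013377-1013406, and IFIT1, chr10:89392497-89392526, both on the plus strand, matches began at -113 and -116. In IFIT1 the match is on the opposite strand, and its window held 1 more match elsewhere. MX1 had 3 windows, of which 1 other also held a match. A match is a description of letters, not of binding.

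TRIM21 (ENSG00000132109.10, chromosome 11 of hg38, the build of all gene positions here, 4384897 to 4393702, minus strand, protein-coding) rose on transfection under all 3 treatments. In DMSO the depc libraries held 14.1 and 13.8 TPM and the transfected ones 47.3 and 55.2 TPM. In 2-CM the depc libraries held 17.5 and 18.2 TPM and the transfected ones 60.2 and 69.9 TPM. In RES the depc libraries held 17.8 and 17.5 TPM and the transfected ones 45.1 and 41.8 TPM. The lowest poly I:C library of any treatment was thus above the highest depc library of any treatment. The ratio of group means was 3.67 in DMSO, 3.65 in 2-CM and 2.46 in RES. On the log2(TPM + 1) scale the change was 1.80 in DMSO (SE 0.17, adjusted p = 0.00207), 1.81 in 2-CM (SE 0.17, adjusted p = 0.00177) and 1.25 in RES (SE 0.17, adjusted p = 0.0257). Averaged over the treatments it was 1.62 (SE 0.10, adjusted p = 5.32e-05).

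After GC correction the TRIM21 change was 1.92 in DMSO (adjusted p = 0.00022), 1.44 in 2-CM (adjusted p = 0.00146) and 1.34 in RES (adjusted p = 0.00354). The RES call was the weakest. It was lost when any of the 10 libraries other than those of DMSO poly I:C was left out, with adjusted p = 0.0792 to 0.167 while the change stayed within 1.199 to 1.31. Over the 13 other settings its adjusted p ran from 0.000152 to 0.962 and the change from 1.25 to 1.39. The DMSO call was lost in a fit of the 4 DMSO libraries alone (adjusted p = 0.299).

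Within poly I:C, TRIM21 on TPM was highest in 2-CM, then DMSO, then RES, with no overlap between neighbours. Within depc, 2-CM and RES overlapped each other and both lay above DMSO. None of these differences passed the test. With depc the change of 2-CM against DMSO was 0.33 (95% interval -0.06 to 0.72) and of RES against DMSO 0.32 (-0.07 to 0.71). With poly I:C it was 0.34 (-0.05 to 0.73) for 2-CM and -0.23 (-0.62 to 0.16) for RES. After GC correction these last values were -0.11 for 2-CM, so that its order with DMSO turned, and -0.46 for RES (adjusted p = 0.71 and 0.145).

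RO60 (ENSG00000116747.12, chromosome 1, 193059422 to 193091777, plus strand, protein-coding) was the scarcest of the 6 and the most variable between replicates. In DMSO the depc libraries held 8.76 and 4.90 TPM and the transfected ones 7.86 and 2.13 TPM. In 2-CM the depc libraries held 3.56 and 2.00 TPM and the transfected ones 18.8 and 16.5 TPM. In RES the depc libraries held 15.2 and 2.78 TPM and the transfected ones 6.21 and 12.3 TPM. Transfected and control libraries were separated only in 2-CM, where the ratio of means was 6.34, and in RES the control replicates spanned both poly I:C libraries. The highest library of all was 9.38-fold above the lowest. Only 2-CM poly I:C stood apart in the order of groups, and each of the other neighbours in that order overlapped.

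The rise of RO60 in 2-CM was 2.33 on the log2 scale (SE 0.72, adjusted p = 0.033). After GC correction it was 0.41 (SE 0.24, adjusted p = 0.206), which is not a call. The call was also lost without each of the 4 libraries of 2-CM, with values of 2.03 to 2.63 and adjusted p = 0.0797 to 0.161, with no filter on low genes (adjusted p = 0.085) and with the most abundant transcript alone (adjusted p = 0.0566). Averaged over treatments the change was 0.71 (SE 0.41, adjusted p = 0.192), and it was a call only without RES depc replicate 1 (1.06, adjusted p = 0.0308) or with the covariate of replicate differences. The changes in DMSO, -0.53 (SE 0.72, adjusted p = 0.783), and in RES, 0.32 (SE 0.72, adjusted p = 0.866), were smaller than the spread of the replicates. GC correction gave -0.54 (adjusted p = 0.169) and -0.05 (adjusted p = 0.943). RO60 shares 481 exonic bases with GLRX2 and 451 with UCHL5 on the opposite strand. No strand option is recorded for the quantification, so reads of these genes cannot be told apart there.

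SSB (ENSG00000138385.16, chromosome 2, 169791933 to 169812064, plus strand, protein-coding) followed RO60 across libraries, at a higher level. In DMSO the depc libraries held 52.1 and 27.7 TPM and the transfected ones 62.2 and 33.7 TPM. In 2-CM the depc libraries held 28.7 and 25.6 TPM and the transfected ones 140.5 and 107 TPM. In RES the depc libraries held 65.2 and 31.4 TPM and the transfected ones 47.7 and 80.8 TPM. Poly I:C libraries were separate from depc libraries in 2-CM alone, where the ratio of means was 4.56, and overlapped them in DMSO and RES. As for RO60, 2-CM poly I:C was the only group that did not overlap its neighbour in the order of levels.

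SSB rose by 2.14 in 2-CM (SE 0.46, adjusted p = 0.027) and by 0.95 over the 3 treatments together (SE 0.27, adjusted p = 0.0291). After GC correction these changes were 0.33 (adjusted p = 0.134) and 0.22 (adjusted p = 0.0794), neither a call. Leaving out any of the 4 libraries of 2-CM ended the first call, with changes of 1.94 to 2.33 and adjusted p = 0.0791 to 0.153, as did no filter on low genes (adjusted p = 0.060). The second was lost without any of 8 libraries: those 4, both second replicates of RES, DMSO depc replicate 2 and DMSO poly I:C replicate 1 (adjusted p = 0.055 to 0.0854), with no filter (adjusted p = 0.0765) and with the most abundant transcript alone (adjusted p = 0.0574). The change was 0.26 in DMSO (SE 0.46, adjusted p = 0.841) and 0.45 in RES (SE 0.46, adjusted p = 0.727), and 0.25 and 0.10 after GC correction (adjusted p = 0.324 and 0.776). SSB shares 572 exonic bases with METTL5 on the opposite strand, which limits its values in the same way.

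**Figure D1:**
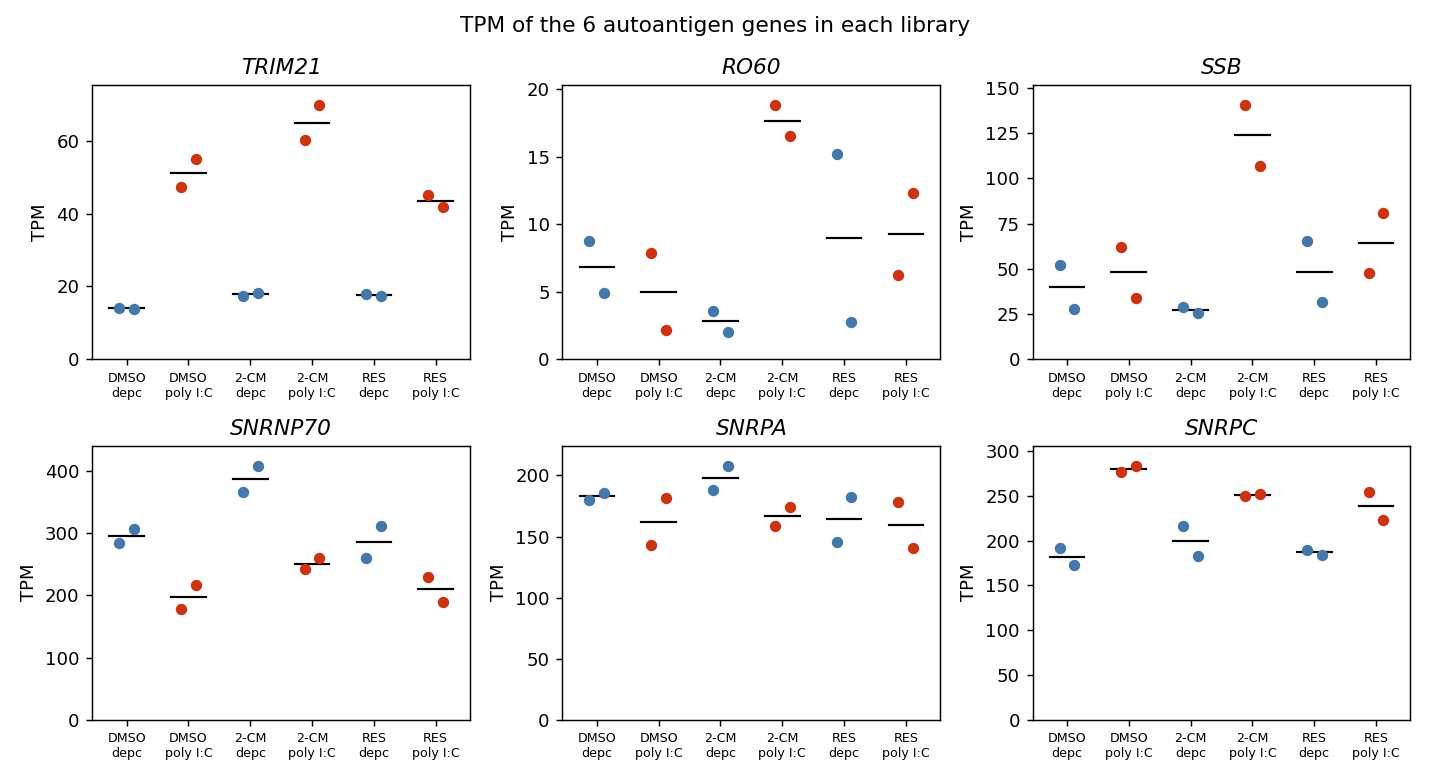
TPM of each of the 6 genes (vertical axis) in the 12 libraries, by group (horizontal axis). Points are libraries, blue for depc and red for poly I:C, and the bar is the mean of the 2 replicates. All 6 poly I:C libraries of TRIM21 lie above all of its depc libraries, while for RO60 and SSB both poly I:C libraries lie above both depc libraries in 2-CM but not in DMSO or RES.

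SNRNP70 (ENSG00000104852.15, chromosome 19, 49085419 to 49108605, plus strand, protein-coding), which binds the first stem-loop of U1 RNA, was the most abundant of the 6 by the mean over all libraries and was lower with poly I:C. With poly I:C in DMSO and RES the mean of SNRPC was higher, at 280 and 238 TPM against 197 and 210 TPM for SNRNP70. In DMSO the depc libraries held 284 and 307 TPM and the transfected ones 178 and 216 TPM. In 2-CM the depc libraries held 366 and 408 TPM and the transfected ones 242 and 259.6 TPM. In RES the depc libraries held 259.8 and 312 TPM and the transfected ones 230.2 and 189 TPM. Under each treatment both poly I:C libraries lay below both depc libraries, and the ratios of means were 0.668, 0.648 and 0.734. The depc libraries of 2-CM were the highest group, with no overlap with DMSO depc.

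The decrease of SNRNP70 passed the test in 2-CM (-0.62, SE 0.17, adjusted p = 0.0292) and over the 3 treatments (-0.55, SE 0.10, adjusted p = 0.00612). In DMSO the value was -0.59 (SE 0.17, adjusted p = 0.0953) and in RES -0.45 (SE 0.17, adjusted p = 0.29). With the GC trend removed, the changes were -0.12 in 2-CM (adjusted p = 0.374), -0.11 in DMSO (adjusted p = 0.498), 0.01 in RES (adjusted p = 0.978) and -0.08 averaged (adjusted p = 0.335). The 2-CM call was lost without any of that compound's 4 libraries (-0.70 to -0.54, adjusted p = 0.0791 to 0.153) and with no filter on low genes (adjusted p = 0.0665), and the averaged call was kept in all 12 such fits.

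SNRPA (ENSG00000077312.9, chromosome 19, 40750637 to 40765389, plus strand, protein-coding), which binds the second stem-loop of U1 RNA, varied least. Its highest library was 1.48-fold above its lowest. In DMSO the depc libraries held 179.9 and 186 TPM and the transfected ones 143 and 181 TPM. In 2-CM the depc libraries held 188 and 208 TPM and the transfected ones 158 and 174 TPM. In RES the depc libraries held 145 and 183 TPM and the transfected ones 178 and 141 TPM. Groups overlapped in DMSO only by the closeness of 179.9 and 181 TPM, were separate in 2-CM, and overlapped in RES. No contrast called SNRPA. The change was -0.18 in DMSO (95% interval -0.62 to 0.25), -0.25 in 2-CM (-0.68 to 0.19) and -0.04 in RES (-0.48 to 0.39). After GC correction the sign turned in DMSO (0.17, adjusted p = 0.413) and RES (0.31, adjusted p = 0.222), and the value in 2-CM was -0.0039 (adjusted p = 0.984). The gene shares 89 exonic bases with C19orf54 on the opposite strand.

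SNRPC (ENSG00000124562.10, chromosome 6, 34757505 to 34773857, plus strand, protein-coding), a zinc-finger protein that stabilises the pairing of U1 RNA with the 5′ splice site, moved opposite to SNRNP70 on TPM. After GC correction both had negative values in 2-CM (-0.16 for SNRPC and -0.12 for SNRNP70). In DMSO the depc libraries held 191 and 173 TPM and the transfected ones 277 and 283 TPM. In 2-CM the depc libraries held 216 and 183 TPM and the transfected ones 249.3 and 252 TPM. In RES the depc libraries held 190.0 and 184 TPM and the transfected ones 254 and 223 TPM. Under every treatment both poly I:C libraries were above both depc libraries, and the ratios of means were 1.54, 1.26 and 1.27. Averaged over treatments SNRPC rose by 0.43 (SE 0.08, adjusted p = 0.00788), and by 0.31 after GC correction (adjusted p = 0.0327). That call was kept in all 12 fits with a library left out.

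In DMSO alone the SNRPC change was 0.62 (SE 0.15), just outside the threshold at adjusted p = 0.0525, and 0.71 after GC correction, inside it at adjusted p = 0.0236. In RES it was 0.34 (SE 0.15, adjusted p = 0.336), and 0.39 after GC correction (adjusted p = 0.244). In 2-CM it was 0.33 (SE 0.15, adjusted p = 0.0814), and its sign depended on the scaling: -0.30 with upper-quartile scaling, -0.52 with median-of-ratios scaling and -0.16 after GC correction. The averaged call was lost under upper-quartile scaling (0.27, adjusted p = 0.194) and median-of-ratios scaling (0.21, adjusted p = 0.376).

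**Figure D2:**
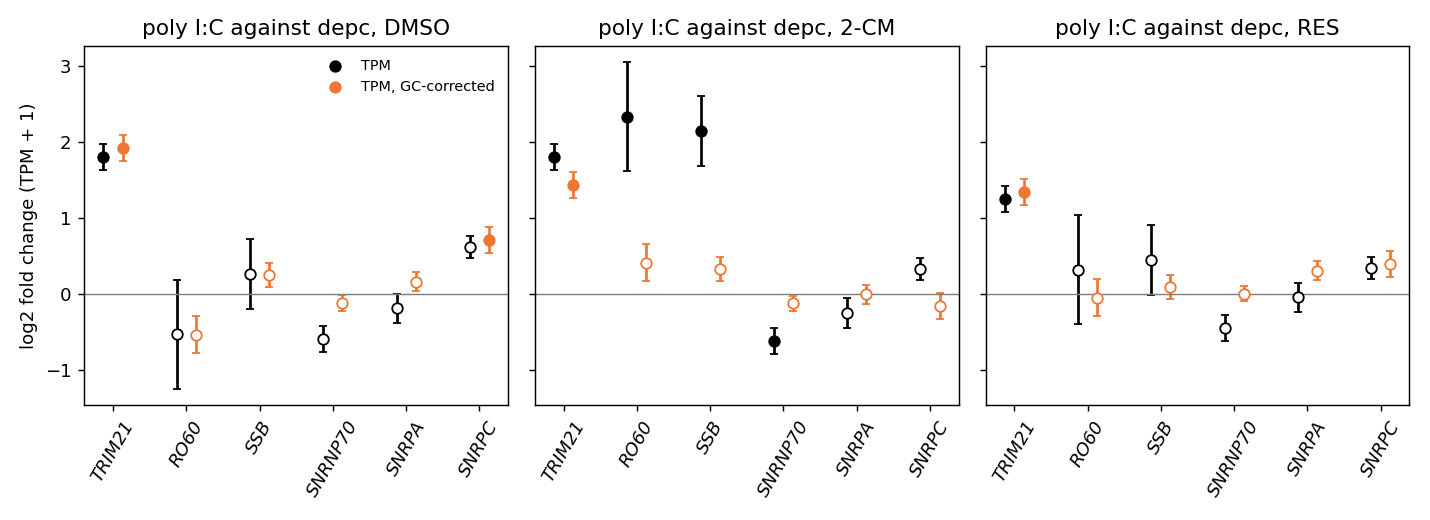
Log2 fold change of poly I:C against depc for each gene (horizontal axis) under DMSO, 2-CM and RES. Points are estimates on TPM (black) or GC-corrected TPM (orange), bars are 1 standard error, and filled points passed the test. TRIM21 is filled on both scales in each panel, whereas RO60, SSB and SNRNP70 are filled only in 2-CM and only on uncorrected TPM.

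Set against all genes, TRIM21 was the member called under every treatment. In DMSO, 1 of the 6 genes was called, TRIM21, where 4.08% of all tested genes were (0.797% higher and 3.28% lower). In 2-CM, 4 of 6 were called, 3 higher and 1 lower, where 49.3% of all genes were (37.5% higher and 11.8% lower). In RES, 1 of 6 was called, TRIM21, against 0.442% of all genes (0.198% higher and 0.244% lower). Averaged over treatments, 3 genes were called higher and 1 lower, against 31.2% of all genes (13.4% higher and 17.8% lower).

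Separation of groups did not single out TRIM21. In DMSO, TRIM21 and SNRPC had both poly I:C libraries above both depc libraries, as had 11.5% of all genes, and SNRNP70 had both below, as had 33.4%. In 2-CM, 4 members lay above and 2 below, where 62.6% and 23.9% of all genes did. In RES, TRIM21 and SNRPC lay above and SNRNP70 below, where 6.05% and 24.1% of all genes did.

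The median change of all genes in 2-CM was 0.61 on TPM but 0.03 with median-of-ratios scaling, and calls were 6440 higher and 2035 lower against 3482 higher and 4046 lower. The split of calls moved in the other treatments too, from 137 higher and 564 lower to 98 and 29 in DMSO, and from 34 and 42 to 37 and 2 in RES. Relative to the 0.61, the changes in 2-CM were 1.72 for RO60, 1.53 for SSB, 1.19 for TRIM21, -0.28 for SNRPC, -0.86 for SNRPA and -1.23 for SNRNP70. In DMSO the median of all genes was -0.14, and TRIM21 stood 1.94 above it. In RES it was -0.03, and TRIM21 stood 1.28 above it.

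The changes of these genes in 2-CM ran with GC content, whereas in DMSO the GC-poor RO60 (-0.53) and the GC-rich SNRNP70 (-0.59) had like values. Across all genes, which are not independent, Spearman's coefficient for the poly I:C change against GC content was -0.36 in DMSO, -0.80 in 2-CM and -0.62 in RES. The GC-poor genes RO60 and SSB had the largest increases in 2-CM, and the GC-rich SNRNP70 and SNRPA the only decreases. TRIM21, near the median GC content, rose by 1.34 to 1.92 once the trend was removed. After GC correction 1 of 6 genes was called in 2-CM, TRIM21, where 30% of all genes were. In DMSO there were then 2, TRIM21 and SNRPC, where 15.7% of all genes were called, and in RES 1, TRIM21, where 3.16% were. Averaged over the treatments, 2 genes remained called, TRIM21 and SNRPC, against 37.3% of all genes.

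**Figure D3:**
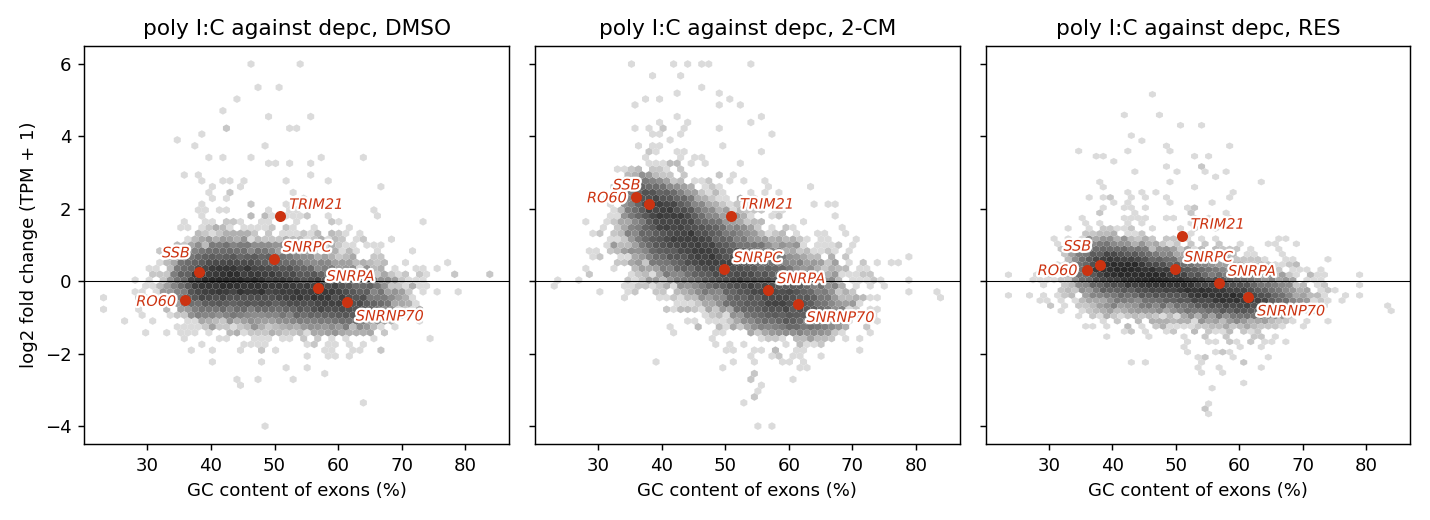
Log2 fold change of poly I:C against depc (vertical axis) against GC content of the exons (horizontal axis) for the 17185 tested genes, under each treatment. Grey shading counts genes on a log scale, values beyond -4 or 6 are drawn at that limit, and red points are the 6 genes. In 2-CM the cloud falls steeply from left to right and carries RO60, SSB, SNRPA and SNRNP70 within it, while TRIM21 lies above the trend at its GC content.

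Whether 2-CM or RES changed the response itself was tested as a difference of differences, and 0 of the 6 genes passed with limma for either compound. For 2-CM minus DMSO, 2 members had an unadjusted p under 0.05, as had 5097 of the 17185 genes tested, and 0.0116% of all genes were called. These were RO60, with a difference of 2.86 (95% interval 0.56 to 5.16, adjusted p = 0.161), and SSB, with 1.87 (0.40 to 3.35, adjusted p = 0.161). After GC correction the differences were 0.95 for RO60 (adjusted p = 0.143) and 0.08 for SSB (adjusted p = 0.838). The lowest adjusted p of the members was then that of SNRPC, with a difference of -0.87 (adjusted p = 0.102), beside -0.29 on TPM. The TRIM21 response differed by 0.01 (-0.54 to 0.55) for 2-CM, and by -0.48 after GC correction (SE 0.24, adjusted p = 0.234). For RES minus DMSO it differed by -0.55 (-1.10 to 0.00, unadjusted p = 0.0504, adjusted p = 1.00), and 0 members had an unadjusted p under 0.05, where 293 of all 17185 genes had, and 0% of all genes were called. With voom weights on estimated reads, the count of called members was 0 in both, and the share of all genes called by voom is not given here.

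The compounds were also compared with DMSO at matched transfection, and limma called 0 of the 6 genes in all 4 comparisons. With depc, 0.0349% of all genes were called for 2-CM and 1.03% for RES, and 0 members had an unadjusted p under 0.05 for either, where 831 and 2524 of all genes had. The largest of these changes was that of RO60 for 2-CM, -1.04 (95% interval -2.66 to 0.59), which was -0.38 after GC correction (adjusted p = 0.576). With poly I:C, 0.105% of all genes were called for 2-CM and 0.157% for RES. For 2-CM, RO60 (1.82, 95% interval 0.20 to 3.45) and SSB (1.40, 0.36 to 2.44) had an unadjusted p under 0.05, as had 5884 of all 17185 genes, and for RES 0 members did, where 2296 genes did. After GC correction the 2-CM values were 0.57 for RO60 (adjusted p = 0.166) and 0.21 for SSB (adjusted p = 0.398). SNRPC then had the lowest adjusted p of the members, at -0.65 (adjusted p = 0.0598), beside -0.16 on TPM. Voom also called 0 members in each of the 4, where its share of all genes is likewise not given. These comparisons share the DMSO libraries, so they are not independent of each other.

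A further setting called far more genes throughout, a fit with a covariate taken from the replicate differences. That covariate comes from the same residuals against which the changes are tested, so its p-values can be too small. This fit called 38.2% of all genes in DMSO, 75.1% in 2-CM, 36.3% in RES and 70.7% averaged, and 4, 6, 4 and 6 of the members. It also called 57.6% of all genes for the 2-CM difference of response and 0.716% for that of RES. Against DMSO it called 33.5% for 2-CM with depc, 27.8% for RES with depc, 65.2% for 2-CM with poly I:C and 37.5% for RES with poly I:C.

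The authors' deposited tables give another estimate for poly I:C against depc. In the authors' deposited table for DMSO, TRIM21 had a log2 fold change of 2.12 (adjusted p = 0.000112) and was the only 1 of the 6 genes under 0.05, where 1.25% of genes with an adjusted p were. In the authors' deposited table for 2-CM all 6 were under 0.05, where 46.4% of genes were. There TRIM21 was at 1.06, RO60 at 1.96 and SSB at 1.36, while SNRNP70 was at -1.36, SNRPA at -1.11 and SNRPC at -0.49. In the authors' deposited table for RES, TRIM21 was at 1.33 with an adjusted p = 0.798, and 0 of the 6 were under 0.05, where 0.363% of genes were. The sign in the authors' deposited tables differed from that on TPM for SNRPC in 2-CM and for SNRPA in DMSO (0.05).

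Transcript composition was examined next, since TPM was estimated per annotated transcript. TRIM21 had 2 annotated transcripts, and ENST00000254436.8, of 7 exons and 1935 bases, held 94.4% to 100% of its TPM. SNRPC had 4, with 82.7% to 89.6% on ENST00000244520.10. SNRPA had 11, with 70.2% to 84.2% on ENST00000243563.8, and SNRNP70 had 10, with 67.4% to 85.4% on ENST00000221448.9. RO60 was divided: its most abundant transcript by mean, ENST00000432079.5, held 12.2% to 49.5%, and ENST00000400968.6 held 8.02% to 51.3%.

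For SNRNP70 the mean share on the main transcript was lower with poly I:C in all 3 treatments. It was 82.3% and 79.6% with depc against 75.6% and 75.9% with poly I:C in DMSO, and 85.4% and 83.2% against 75.9% and 72.8% in 2-CM. In RES it was 70.5% and 72.9% against 70.97% and 67.4%, where the groups overlapped. The mean difference of -5.91 percentage points had p = 0.0185 in a two-sided exact permutation test within treatment, of 216 arrangements and a smallest possible p of 0.00926. Adjusted over the 6 genes tested this was 0.111, so the difference did not pass. A gene at the smallest possible p would not pass alone either after this adjustment, so the test cannot decide on a change in a single gene. In DMSO the main transcript was at 234 and 244 TPM with depc and at 135 and 164 TPM after transfection. Transcripts of the gene typed in GENCODE 44 as nonsense-mediated decay or retained intron together held 40.3 and 48.9 TPM with depc and 37.6 and 39.0 TPM with poly I:C. In 2-CM the main transcript was at 313 and 339 TPM with depc and at 184 and 189 TPM when transfected, and the other class at 29.9 and 45.8 TPM against 47.7 and 56.4 TPM. In RES that class was at 66.9 and 72.7 TPM with depc against 57.2 and 57.0 TPM when transfected, above all libraries of DMSO.

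For SSB the share on ENST00000260956.9 was 96.3% or more in the 4 libraries of DMSO and in both of 2-CM depc, but 84.7% and 69.4% in 2-CM poly I:C. The other transcript there was ENST00000409333.1, a protein-coding form with its start at 169799279 in place of 169798871. Its level was 17.5 and 29.9 TPM in the transfected 2-CM libraries, 5.79 TPM in RES depc replicate 1 and 1.73 TPM or less in the remaining 9 libraries. Over all 3 treatments the share of SSB on its main transcript differed by -5.11 percentage points (exact permutation p = 0.222, adjusted p = 0.333). The other genes gave adjusted p = 0.222 for SNRPA (-3.87 points), 0.333 for RO60 (-6.83 points), 0.333 for TRIM21 (1.79 points) and 0.565 for SNRPC (0.64 points) in the same exact permutation test. Since no gene could pass this test alone, these values do not show that the shares stayed the same.

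**Figure D4:**
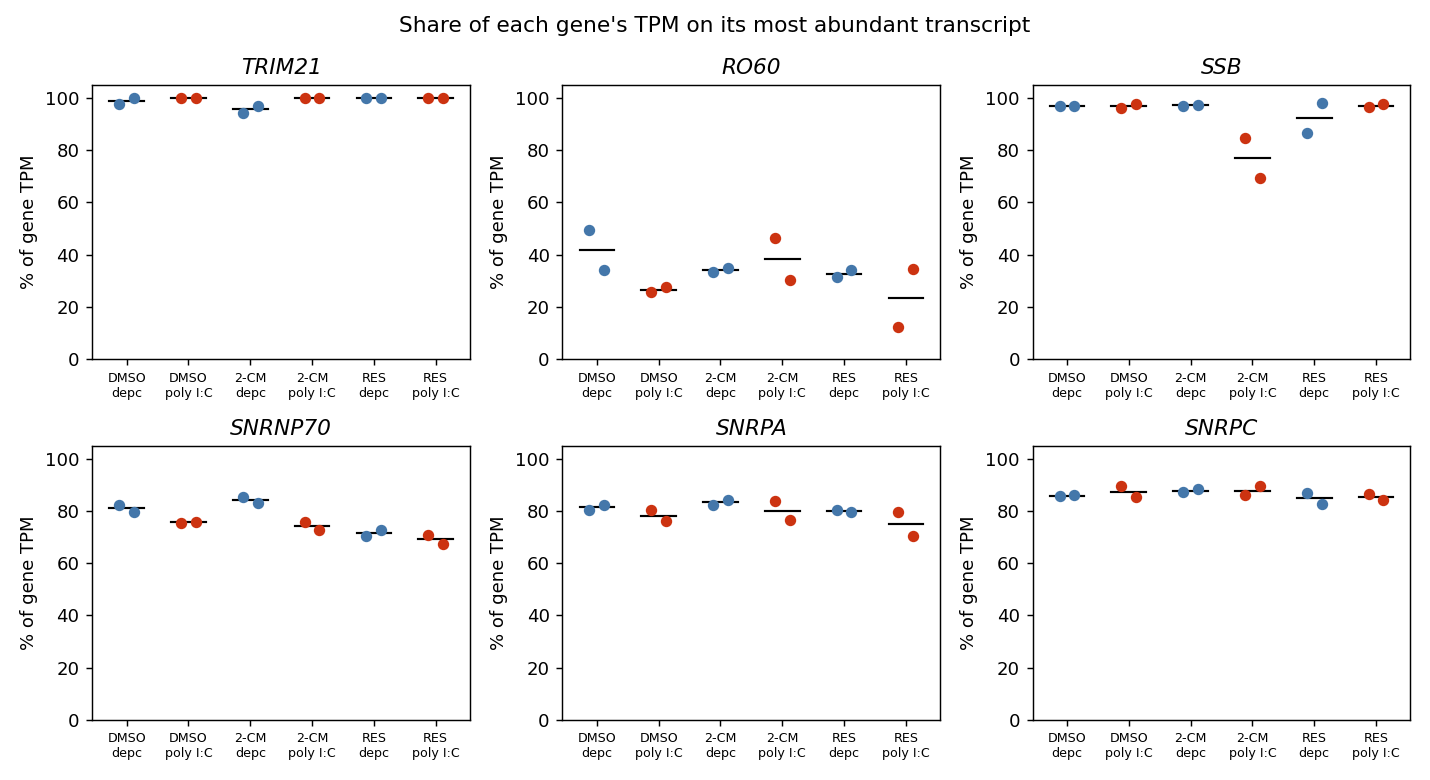
Share of each gene's TPM on its most abundant transcript (vertical axis, percent) in the 12 libraries by group (horizontal axis). Points are libraries, blue for depc and red for poly I:C, and bars are means of 2 replicates. The SNRNP70 share is lower with poly I:C in DMSO and 2-CM, and the SSB share is at 84.7% and 69.4% in 2-CM poly I:C and at 86.7% in RES depc replicate 1.

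TRIM21 was then set beside 8 interferon-induced reference genes. In DMSO 6 of the 8 rose and 0 fell, in 2-CM 8 rose, in RES 5 rose, and averaged over treatments 8 rose. Of all tested genes 0.797%, 37.5%, 0.198% and 13.4% were called higher in these contrasts. Their median change was 3.80 in DMSO, 4.35 in 2-CM and 2.97 in RES, so TRIM21, at 1.80, 1.81 and 1.25, rose less than that median under each treatment. In DMSO the largest of them were OAS1 (5.43), IFIT1 (4.75) and IRF9 (4.29), which encode an RNA-sensing synthetase, an RNA-binding protein and the DNA-binding subunit of the interferon-activated ISGF3 complex. STAT2, the partner of IRF9, rose by 1.07 in DMSO and by 1.77 in 2-CM. After GC correction 8 of 8 were called higher in DMSO, 8 in 2-CM and 7 in RES, where 1212, 2458 and 228 of all 17185 genes were.

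Genes that cooperate with TRIM21 were counted next. Of 10 listed ubiquitin partners and substrates, 9 were tested, and in DMSO 1 rose and 0 fell, where 0.797% of all genes were called higher and 3.28% lower. That gene was IRF7, an interferon regulatory factor that TRIM21 is known to target, which went from 4.25 and 4.60 TPM to 26.2 and 40.9 TPM, a change of 2.64 (SE 0.33, adjusted p = 0.00829). In 2-CM 4 rose and 3 fell, where 37.5% of all genes were called higher and 11.8% lower, and averaged over treatments 3 rose and 4 fell, where 13.4% and 17.8% of all genes did. In 2-CM the largest increases were those of the E2 family genes UBE2V2 (2.78), UBE2W (2.65) and UBE2N (2.41). The decreases there were FCGRT, the neonatal antibody receptor (-1.41), IRF3 (-0.95) and SQSTM1, an autophagy receptor (-0.86). After GC correction 2 were called higher and 4 lower in 2-CM, where 30% of all genes were called, and UBE2W (0.72, adjusted p = 0.226) and UBE2N (0.67, adjusted p = 0.259) were no longer called. In RES none of the 9 was called by limma, and 1 was after GC correction.

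Partners of the Ro and La particles and proteins related to La by their La domain made up 2 further lists. Of 9 partners of the Ro and La particles, 0 were called in DMSO and RES, and in 2-CM 3 rose and 1 fell, shares near the 37.5% and 11.8% of all genes. Those in 2-CM were HNRNPK (1.35), nucleolin, NCL (1.27), and YBX3 (0.88), against PUF60, a poly(U)-binding splicing factor (-1.01). Of 6 La-related proteins, 4 rose in 2-CM, led by LARP4 (2.47), LARP7 (2.11), which binds the 7SK RNA, and LARP1B (1.72), and 0 fell, against the same shares of all genes. In DMSO, LARP1, which binds mRNAs of ribosomal proteins, fell by 0.85 (adjusted p = 0.0401). GC correction left 1 of 9 partners called higher and 1 lower in 2-CM, and 0 of 6 La-related proteins in either direction. The sign of HNRNPK (-0.36), YBX3 (-0.68) and LARP1B (-0.06) turned with it.

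The other proteins of the U1 particle were compared with SNRNP70, SNRPA and SNRPC. Of the 7 Sm core proteins, which form the ring shared by spliceosomal snRNPs, 5 rose and 1 fell in 2-CM, where 37.5% of all genes were called higher and 11.8% lower, while 0 were called in DMSO and RES. The largest were SNRPE (1.60), SNRPG (1.59) and SNRPD1 (1.55), and SNRPB was the decrease (-0.58). Their median change in 2-CM was 1.41, beside 0.61 for all genes, and -0.09 after GC correction, beside -0.01 for all genes. SNRPF (-0.54), SNRPD1 (-0.09) and SNRPG (-0.05) then turned sign. Of 6 U1-associated splicing factors, all 6 rose in 2-CM, against 37.5% of all genes, with TIA1 (2.76), PRPF39 (2.59) and LUC7L3 (2.09) the largest, and 0 were called in DMSO and RES. Of the U2 snRNP relatives of SNRPA, SNRPB2 rose by 2.47 in 2-CM. After GC correction 0 of 7 Sm core proteins, 1 of 6 U1-associated factors (PRPF39, 0.66) and SNRPB2 (0.61) were called in 2-CM. In DMSO, where 0 Sm core proteins had been called, 2 were called higher after it, as calls of higher genes over all genes went from 137 to 1212.

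Of 12 assembly factors of the Sm core, such as the SMN complex, 5 rose and 1 fell in 2-CM, shares near the 37.5% and 11.8% of all genes. Of those called, DDX20, a helicase of that complex, had the largest change, 2.22, followed by SMN1 (2.07) and SMN2 (1.89), near-identical copies whose values are uncertain. GEMIN4 fell by 0.68 there and by 0.83 in DMSO. After GC correction 1 was called higher and 3 lower in 2-CM, where 2458 and 2693 of all 17185 genes were.

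**Figure D5:**
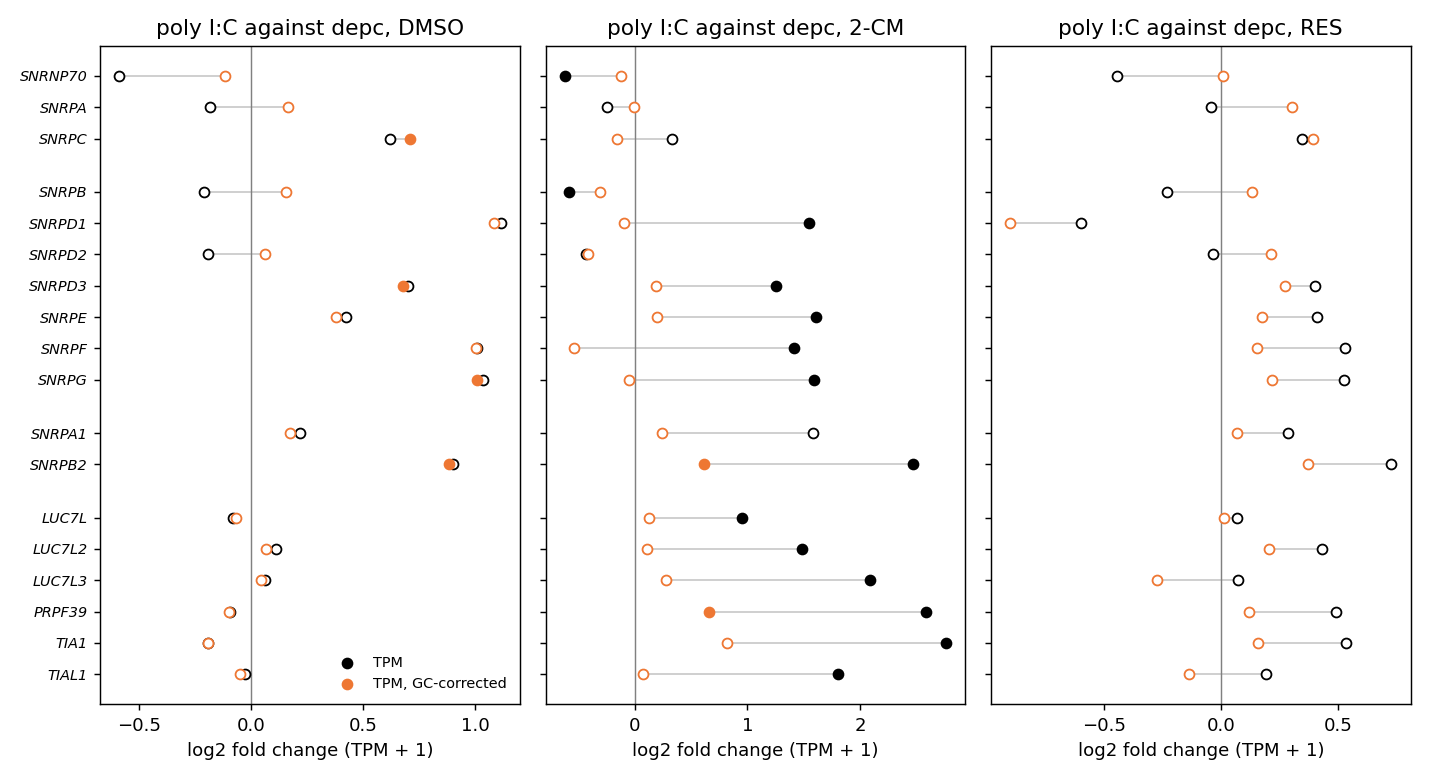
Log2 fold change of poly I:C against depc (horizontal axis, scaled separately in each panel) for the U1-specific genes, Sm core proteins, U2 relatives and U1-associated factors (vertical axis). Black points are on TPM, orange points on GC-corrected TPM, filled points passed the test, and grey lines join the estimates of a gene. In 2-CM the U1-associated factors spread from 0.95 to 2.76 on TPM and from 0.08 to 0.82 after correction.

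Across the 12 libraries, the genes whose log2(TPM + 1) most resembled each member were sought among 10182 genes with a mean TPM of 5 or more. The libraries share group and GC-related differences, so these correlations are descriptions. TRIM21 was closest to IRF9 (Pearson r = 0.991), IFITM1 (0.991) and BATF2 (0.987). RO60 was closest to MTMR1 (0.997), FBXO21 (0.993) and GJC1 (0.991), and SSB to TRMT6 (0.992), CCNL1 (0.991) and DNTTIP2 (0.990). SNRNP70 was closest to COASY (0.993), PACSIN3 (0.993) and MED22 (0.987). SNRPA was closest to H2AFX (0.949), NUDT8 (0.939) and DMAC2 (0.935), and SNRPC to UQCR10 (0.964), RPL38 (0.952) and GNG5 (0.951). The GC content of the nearest genes was 53.8% to 58.0% for TRIM21, 44.7% to 46.4% for RO60, 38.4% to 41.7% for SSB, 57.0% to 63.2% for SNRNP70, 52.5% to 66.8% for SNRPA and 48.5% to 51.7% for SNRPC.

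Among themselves the 6 genes formed no common pattern. RO60 and SSB had r = 0.92 over the 12 libraries, TRIM21 and SNRPC 0.90, and SNRNP70 and SNRPA 0.80. SNRNP70 was inverse to SNRPC (-0.70) and to TRIM21 (-0.69), and SNRPA to RO60 (-0.71). In level, the U1 proteins averaged 172 to 271 TPM over all libraries, SSB 58.6, TRIM21 34.9 and RO60 8.42 TPM. SNRNP70 stood at the 97.5th percentile of the tested genes, SNRPC at the 96.9th and RO60 at the 52.1st.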

How the data were processed

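StringTie 2.0.4 was run by the authors with the GENCODE 32 annotation, per the file headers, and the deposited files hold TPM, FPKM and coverage per transcript (signal per base, and other attributes). The submitters' processing notes also name bcl2fastq 2.20, HISAT2 2.1.0, DESeq2 and hg38, and no header carries a strand option. The authors' deposited tables hold a signal column (normalised counts averaged by the authors), log2 fold changes and their errors, a test score and p-values, positive where poly I:C was higher.

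Transcript TPM was summed per gene in Python 3.11.15. In R 4.3.3, limma 3.58.1 fitted 6 group means to log2(TPM + 1), with variances moderated along abundance, over 17185 genes that reached a TPM of 1 in 2 or more libraries. Fold changes on this scale understate the change of low genes. The fit had 6 residual degrees of freedom. Calls needed a Benjamini-Hochberg adjusted p under 0.05, taken separately in each of 10 contrasts. Unless the authors' table is named, a gene's adjusted p comes from limma. GC correction subtracted, per library, a lowess trend (span 0.3) of the deviation from each gene's mean against GC content of merged exons on hg38. The fit was tested on simulated data of 16041 genes: 66% of 2-fold changes were recovered in DMSO, 62% in 2-CM and 81% in RES, with all 4-fold ones, and false calls made up 6.74%, 4.14% and 7.18% of calls, and 8.68% in the average over treatments. The simulation gave every gene the same dispersion, a measure of variability between replicates, and changed no gene with few reads. How far these rates hold for more variable genes, such as RO60, was not tested. Nor was it tested for libraries that differ along GC content, as the replicates here do. Transcript types are from GENCODE 44. Isoform shares were compared by an exact permutation test.

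From each list at most 3 called genes per direction and contrast were named, with the counts of the whole list. The members and lists were chosen with earlier results of these data known. Coordinates count from base 1. Whether sample replicate numbers pair the libraries was not established. Deviations of equal numbers correlated positively between 5 of the groups, at 0.15 to 0.76, and negatively with RES poly I:C, at -0.31 to -0.80.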

Additional observations from a re-analysis of the deposited data

How the results depend on the processing

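The number of the 6 genes called by limma was recomputed under 13 other settings and with each of the 12 libraries left out. Where no share of all genes stands beside a count, that count is not set against all genes. In DMSO, where 1 was called, 2 were called with a TPM minimum of 5, 2 with GC correction, 2 with GC correction and the replicate block, 4 with a covariate of replicate differences and 0 in a fit of the groups compared alone. Of all tested genes 4.08% were called in DMSO in the main fit, the one without these settings. With GC correction 15.7% were, and with the covariate 38.2%. In 2-CM, where 4 were called, 1 was called with no filter on low genes, 1 with GC correction, 1 with GC correction and the replicate block, 6 with the covariate, and leaving out libraries gave 1 to 4. RO60 was also not called there with the most abundant transcript alone. Of all tested genes 49.3% were called in 2-CM in the main fit, 30% with GC correction and 75.1% with the covariate. In RES, where 1 was called, 0 were called with FPKM, upper-quartile scaling, median-of-ratios scaling, voom, the groups compared alone and the most abundant transcript, 4 with the covariate, and 0 to 1 with libraries left out. Of all 17185 tested genes 0.442% were called in RES in the main fit, 3.16% with GC correction and 36.3% with the covariate. Upper-quartile scaling called 38 of them, median-of-ratios scaling 39 and voom 57. Averaged over treatments, where 4 were called, 2 were with GC correction, with or without the replicate block, 3 with upper-quartile scaling, median-of-ratios scaling, no filter or the most abundant transcript, 6 with the covariate, and 3 to 5 with libraries left out. Of all 17185 tested genes 31.2% were called in this average in the main fit, 37.3% with GC correction and 70.7% with the covariate. Upper-quartile scaling called 6283 of them and median-of-ratios scaling 6244. The covariate is drawn from the same residuals and leaves the fold changes as they are. It called 2 members for the 2-CM difference of response, where 57.6% of all genes were called. Against DMSO it called 4 for 2-CM with depc (33.5% of all genes) and 1 for RES with depc (27.8%). With poly I:C it called 4 for 2-CM (65.2% of all genes) and 2 for RES (37.5%). In these contrasts 0 members were called otherwise. The cause of these changes was not tested, beyond the groups-alone fit and the left-out libraries using fewer libraries.

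The replicate number as a block called 1 member in DMSO, 4 in 2-CM, 1 in RES and 4 averaged, as without it, and changed no call of a single member. The share of all genes called with the block is not given here. Whether the numbers pair the libraries was not established, so the block is a check only. No change of a member that was called in the main fit reversed sign under any of these settings. In data simulated with the same dispersion for every gene, 62% to 81% of 2-fold changes were recovered within a treatment. Recovery was not tested for genes as variable as RO60, or in libraries that differ along GC content, as the replicates here do.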

Other observations

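Other nuclear and cytoplasmic autoantigens were listed as a further set of 22 genes, all of them tested. In DMSO 2 rose and 1 fell, in 2-CM 12 rose and 7 fell, in RES 0 rose and 1 fell, and averaged over treatments 6 rose and 6 fell. Of all genes 0.797% were called higher and 3.28% lower in DMSO, 37.5% and 11.8% in 2-CM, 0.198% and 0.244% in RES, and 13.4% and 17.8% averaged. After GC correction 5 were called higher and 2 lower in DMSO, 6 and 7 in 2-CM, 3 and 1 in RES, and 9 and 5 averaged, where 15.7%, 30%, 3.16% and 37.3% of all genes were called. The increases in DMSO were IFI16, a DNA sensor (2.53, SE 0.48, adjusted p = 0.0334), and IFIH1, the MDA5 sensor of double-stranded RNA (2.26, SE 0.46, adjusted p = 0.038). Both rose in 2-CM as well, by 3.98 and 4.18, and after GC correction by 2.29 and 2.498. SPTAN1, the alpha-fodrin described as a Sjögren's autoantigen, fell under each treatment: by 1.37 in DMSO, by 0.54 in 2-CM and by 1.07 in RES (limma adjusted p = 0.00715, 0.0321 and 0.0372). After GC correction its changes were -1.19, -0.74 and -0.91, and all 3 were calls.

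Of the RNAs that these proteins bind, 6 genes of Y and U1 RNA were tested, in libraries made from polyadenylated RNA in which such RNAs are not expected to be captured well. The 4 genes of U1 RNA, near-identical copies whose values are uncertain, fell in 2-CM, where 11.8% of all genes were called lower. Of the Y RNA genes, RNY1 was at -0.74 in 2-CM (adjusted p = 0.216), and at -1.93 after GC correction, where it was called (adjusted p = 0.0267). RNY3 was at 0.10 (adjusted p = 0.89), and at -0.97 after GC correction (adjusted p = 0.158). RNU1-1 was at 77.5 and 82.5 TPM with depc against 15.2 and 3.73 TPM when transfected, a change of -3.21 (SE 1.11, adjusted p = 0.0422), and GC correction left it at -3.19 (adjusted p = 0.0463). In DMSO it was at 7.90 and 24.9 TPM with depc against 9.44 and 3.36 TPM, and in RES at 202 and 42.1 TPM against 23.0 and 2.01 TPM.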
